A study of Mus musculus with 34 samples.

Results

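The genes examined are 9 genes of hepatocytes around the central vein and of the Wnt pathway that shapes this zone, namely *Glul*, *Oat*, *Slc1a2*, *Rhbg*, *Cyp2e1*, *Cyp1a2*, *Lgr5*, *Rnf43* and *Nkd1*. They were taken by gene symbol, as 9 of the 78298 genes in the deposited count table, and all 9 had enough counts to be tested. Bulk RNA-seq was performed on liver tissue from WT and SIRTintKO mice before surgery (0 hours) and at 6 and 24 hours after partial hepatectomy (PHx). All mice were males of C57/Bl6 background aged 8 to 12 weeks and carried *Sirt1* alleles with loxP sites around exon 4. SIRTintKO mice also carried a Cre recombinase under the Villin promoter, which is active in the intestinal epithelium, and the controls called WT were floxed mice without Cre. PHx removed 70% of the liver, as the left lateral and median lobes, and mice at 0 hours were not operated. There were 6 WT and 6 SIRTintKO livers at 0 hours, 6 and 5 at 6 hours, and 4 and 7 at 24 hours.

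Hepatocytes differ along the path of blood from the portal tract to the central vein. Those next to the central vein take up glutamate and ammonia and make glutamine, and a broader central zone carries cytochromes P450 that metabolise drugs and toxins. Endothelial cells of the central vein and the sinusoids secrete Wnt ligands and R-spondin, which stabilise beta-catenin in nearby hepatocytes and so maintain this program, and the pathway switches on its own receptors and inhibitors as feedback.

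Libraries held 14892122 to 23480492 counts, with a median of 16807340. Within groups, the median rank correlation of a library with the others was lowest in the WT livers at 24 hours. Hepatic *Sirt1* ranged from 6.92 to 23.1 CPM across all livers, and because the deletion lies in the intestine it does not check the genotype labels. The names of the libraries at 0 hours belong to another number series than those after PHx, so that a difference in handling and the effect of PHx cannot be told apart in comparisons with 0 hours. Comparisons of 24 with 6 hours and of genotypes at 1 time point lie within a series. The liver label, which does not name the lobe, fits the levels of the hepatocyte markers, with 10 of 10 tested. Their summed level was 54189 to 109962 CPM in all groups. In bulk samples, fewer cells of a type and less RNA per cell cannot be told apart.

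In unoperated WT livers the 9 genes covered a wide range of levels. Per kilobase of exon, *Cyp2e1*, the ethanol-metabolising cytochrome P450, stood highest, at 2271 ± 450.02 CPM per kb (SD, n = 6). *Cyp1a2*, a P450 induced through the aryl hydrocarbon receptor, was at 291 ± 51.6 CPM per kb. *Oat*, ornithine aminotransferase, was at 264 ± 55.5 and *Glul*, glutamine synthetase, at 214 ± 49.9 CPM per kb. Among these 3 genes, neighbours in the order differed by no more than the SD. *Slc1a2*, a glutamate transporter, followed with 7.72 ± 1.44 CPM per kb, and *Rhbg*, an ammonia channel, with 4.25 ± 1.11 CPM per kb. The Wnt target genes were lowest. *Nkd1*, an inhibitor of Dishevelled, was at 0.892 ± 0.106 and *Rnf43*, a ubiquitin ligase that removes Wnt receptors, at 0.629 ± 0.295 CPM per kb, which is within the SD of *Rnf43*. *Lgr5*, a receptor for R-spondins, was at 0.303 ± 0.114 CPM per kb. Lengths are unions of exons in GENCODE vM21 and are not the transcript lengths that Salmon used. In that annotation *Oat* overlaps *Fgfr2*, *Rhbg* overlaps Gm38392 and *Rnf43* overlaps 1110028F11Rik on the same strand, so that reads could be shared. Their mean levels were 31.8 CPM for *Fgfr2*, 0.762 CPM for Gm38392 and 0.866 CPM for 1110028F11Rik.

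In unoperated SIRTintKO livers *Cyp1a2* was at 298 ± 31.2, *Oat* at 237 ± 53.3 and *Glul* at 236 ± 40.5 CPM per kb (SD, n = 6). At 24 hours the mean level of *Cyp1a2* per kilobase was below those of *Oat* and *Glul* in both genotypes, a change of order that was not tested. In WT livers *Cyp2e1* was at 670 ± 359, *Oat* at 263 ± 144, *Glul* at 75.8 ± 56.4 and *Cyp1a2* at 20.05 ± 12.3 CPM per kb (SD, n = 4). The WT levels of *Glul* and *Cyp1a2* differed by less than the SD of *Glul*. In SIRTintKO livers *Cyp2e1* was likewise highest, at 381 ± 251 CPM per kb (SD, n = 7), and *Oat* second, at 151 ± 91.3 CPM per kb. *Glul* was at 33.1 ± 24.7 and *Cyp1a2* at 23.5 ± 13.8 CPM per kb, and these 2 levels lay within their SD of each other. *Slc1a2* was at 1.70 ± 1.81 and *Rhbg* at 1.25 ± 0.885 CPM per kb, which again overlapped.

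The sequences before the start sites are shown because 6 of the 9 genes were called lower in SIRTintKO livers at 24 against 0 hours and because TCF/LEF factors, the partners of beta-catenin, bind a short motif. RefSeq promoters on build GRCm38.p6 were matched by symbol for 7 of the 9 genes, with 8 start sites. *Rhbg* and *Lgr5*, which were among the 6, had no promoter entry and were not searched. In the 250 bases before each start, the letters CTTTG followed by A or T at both of the next bases were searched on both strands, and a match was found at 3 of the 8 start sites. The same letters were present in 14.8% of the 32851 promoter windows of the table. The match is in capitals, and *Glul*, in which these letters are not in the window, is printed for comparison. *Oat*, *Nkd1* and both start sites of *Rnf43* had no match either and are not printed. Whether a match goes with a fall in level was not tested. *Slc1a2* lies at chr2:102706188-102706437 on the plus strand, *Cyp2e1* at chr7:140763569-140763818 on the plus strand, *Cyp1a2* at chr9:57683656-57683905 on the minus strand, and *Glul* at chr1:153899679-153899928 on the plus strand. All are written 5′ to 3′ along the gene.
Slc1a2: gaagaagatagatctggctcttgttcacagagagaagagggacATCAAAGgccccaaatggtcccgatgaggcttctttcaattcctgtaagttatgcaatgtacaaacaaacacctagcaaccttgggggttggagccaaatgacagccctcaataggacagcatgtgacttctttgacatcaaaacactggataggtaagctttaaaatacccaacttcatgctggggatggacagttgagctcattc
Cyp2e1: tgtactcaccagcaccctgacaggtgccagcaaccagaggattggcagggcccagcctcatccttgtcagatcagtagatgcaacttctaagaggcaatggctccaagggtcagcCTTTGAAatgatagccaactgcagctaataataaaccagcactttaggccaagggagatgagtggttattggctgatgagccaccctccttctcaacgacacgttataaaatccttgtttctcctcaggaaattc
Cyp1a2: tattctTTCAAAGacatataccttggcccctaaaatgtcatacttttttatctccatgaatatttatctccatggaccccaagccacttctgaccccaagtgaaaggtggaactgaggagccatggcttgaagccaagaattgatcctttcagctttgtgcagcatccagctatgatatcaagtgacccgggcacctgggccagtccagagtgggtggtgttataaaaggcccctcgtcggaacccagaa
Glul: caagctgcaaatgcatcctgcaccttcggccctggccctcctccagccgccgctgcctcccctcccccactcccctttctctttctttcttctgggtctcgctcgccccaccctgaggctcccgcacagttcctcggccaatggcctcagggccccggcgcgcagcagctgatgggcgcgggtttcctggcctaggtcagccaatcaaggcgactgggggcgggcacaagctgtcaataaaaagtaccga
The match began 207 bases before the start of *Slc1a2*, 135 bases before that of *Cyp2e1* and 244 bases before that of *Cyp1a2*. The core of the dioxin response element, TNGCGTG on both strands, was not in the window of *Cyp1a2*. It was found at 1 of the 8 start sites, that of *Nkd1*, against 4.1% of all windows. A match describes these letters and is no binding site.

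**Figure D1:**
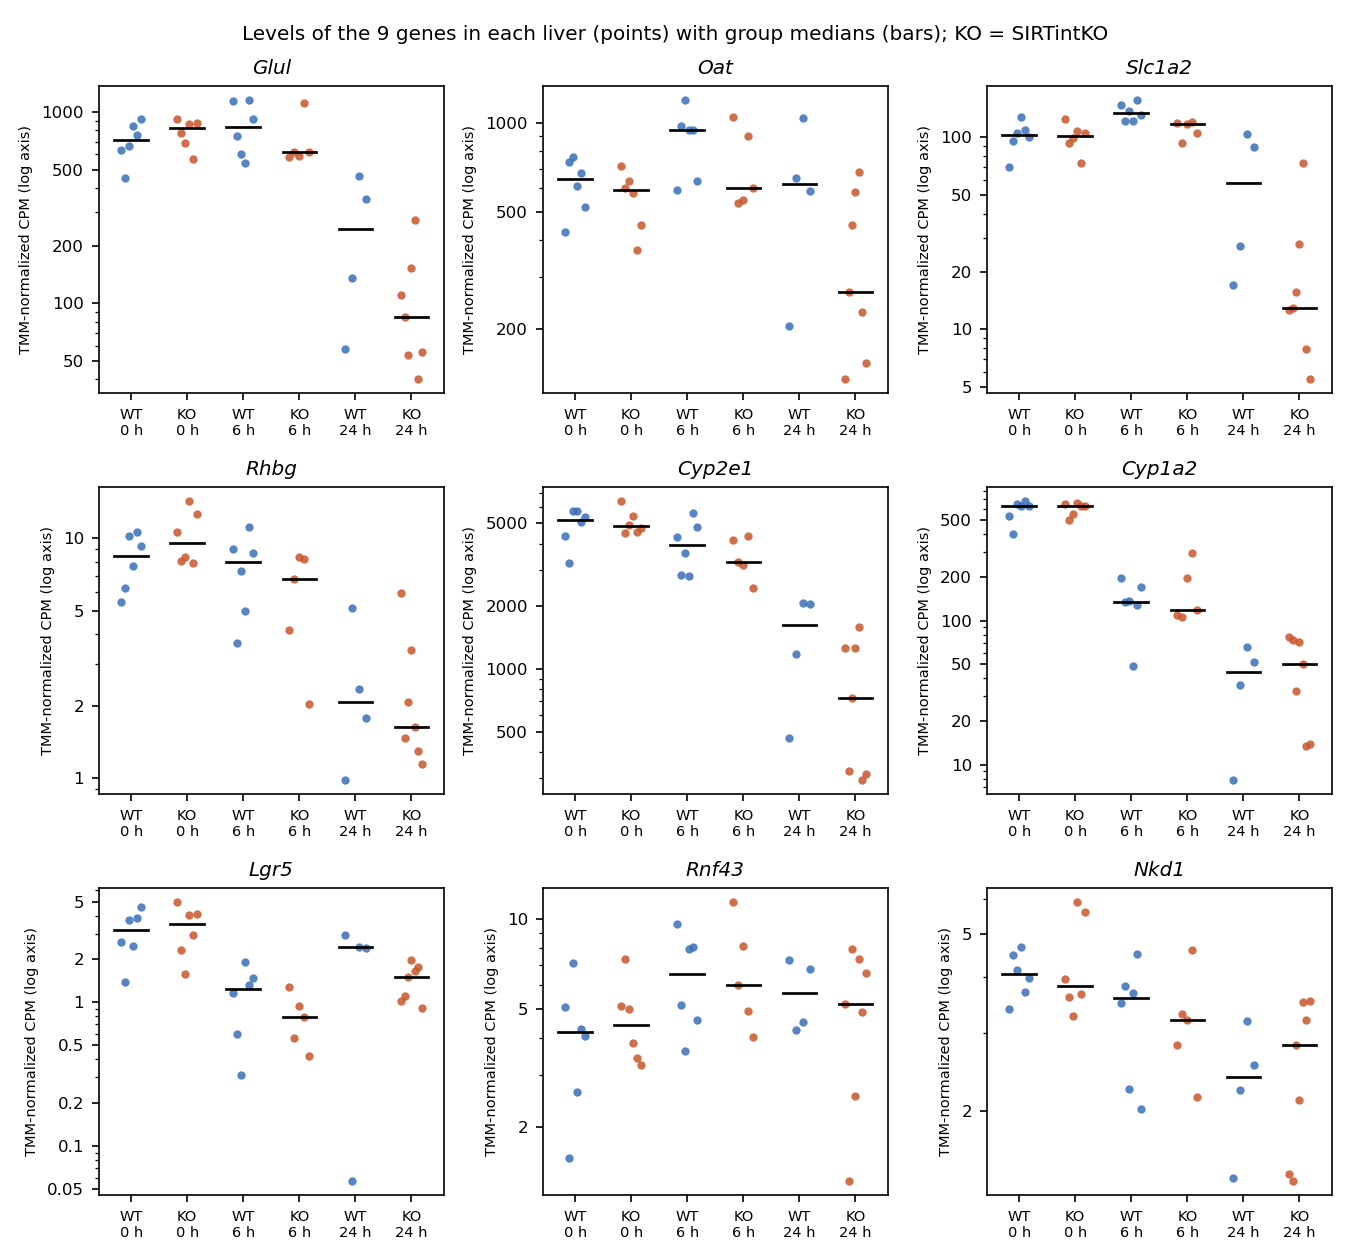
Levels of the 9 genes as TMM-normalized CPM on log axes, by genotype and hours after PHx, with each point a liver and each bar the group median. *Cyp1a2* was lower at 6 hours already, while *Glul* and *Cyp2e1* fell between 6 and 24 hours in both genotypes and *Slc1a2* in SIRTintKO livers, with a wide spread among the livers at 24 hours.

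To describe the central program over the first day, livers at 6 and 24 hours were compared with unoperated livers of the same genotype. A gene was called as a DEG where its edgeR adjusted p was below 0.05 and its log2 fold change lay beyond 1 in either direction. At 6 hours, 2 of the 9 genes were called lower in WT livers, against 8.4% of all 14980 genes tested, and the same 2, *Cyp1a2* and *Lgr5*, were called lower in SIRTintKO livers, against 8.7% of all genes. At 24 hours, 4 of the 9 were called lower in WT livers, against 7.4%, and 6 of the 9 in SIRTintKO livers, against 11.1%. None of the 9 was called higher at either time point in either genotype, where the share of all genes called higher was 7.17% and 8.32% in WT and 7.86% and 11.9% in SIRTintKO livers at 6 and 24 hours. At 6 hours the genes that were not called had log2 fold changes in WT and SIRTintKO livers of 0.26 and -0.15 for *Glul*, 0.42 and 0.14 for *Slc1a2*, -0.14 and -0.81 for *Rhbg*, 0.50 and 0.37 for *Oat*, -0.30 and -0.55 for *Cyp2e1*, -0.30 and -0.43 for *Nkd1*, and 0.65 and 0.57 for *Rnf43*. The median log2 fold change of the 9 genes at 24 hours was -0.79 in WT and -2.11 in SIRTintKO livers, where the median over all genes was 0.02 and 0.04. Since both sets of controls differ, these are values side by side, and the test of the difference between genotypes follows further on.

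**Figure D2:**
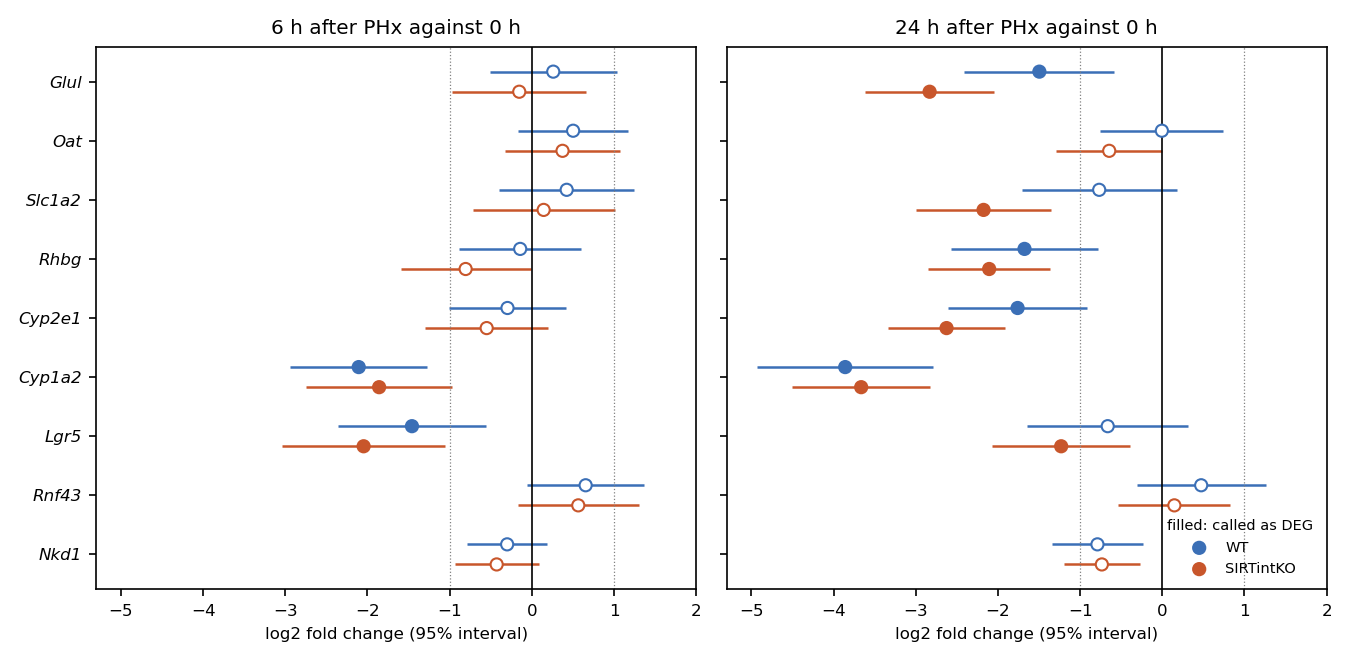
Log2 fold changes of the 9 genes against 0 hours, with 95% intervals from the edgeR fit, in WT (blue) and SIRTintKO (orange) livers. Filled points were called as DEGs, and at 24 hours 4 points are filled for WT and 6 for SIRTintKO livers.

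Among the genes of glutamine and glutamate handling, *Glul* makes glutamine from glutamate and ammonia and is confined to the hepatocytes nearest the vein. In WT livers at 0 hours it ranged from 453 to 914 CPM with a median of 711, and at 6 hours from 542 to 1155 with a median of 835. In the 4 WT livers at 24 hours it was at 57.9, 136, 463 and 351 CPM. The first 2 livers were far below every unoperated liver, the third lay at the low end of the unoperated range and the fourth below it. In SIRTintKO livers *Glul* ranged from 567 to 919 CPM with a median of 824 at 0 hours, and it was at 578, 620, 589, 1120 and 619 CPM at 6 hours. At 24 hours it ranged from 40.2 to 274 CPM with a median of 85, and all 7 livers lay below every SIRTintKO liver at 0 or 6 hours. Groups that did not overlap, with the later group lower, were found for 10.9% of all genes in the comparison with 0 hours and for 5.01% in that with 6 hours. *Glul* was called lower at 24 hours in both genotypes. The log2 fold change against 0 hours was -1.50 ± 0.45 in WT livers (SE), at an edgeR adjusted p of 0.0105, and -2.83 ± 0.38 in SIRTintKO livers (SE, edgeR adjusted p = 7.74e-07). Without WT replicate 1 at 24 hours the WT value was -1.17, with an edgeR adjusted p of 0.0505, and without WT replicate 2 it was -1.29, with 0.0560.

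*Slc1a2* carries glutamate into the same perivenous cells. In WT livers it ranged from 69.8 to 128 CPM with a median of 103 at 0 hours and from 121 to 157 with a median of 134 at 6 hours, and it was at 17.1, 27.2, 105 and 89.2 CPM in the 4 livers at 24 hours. Among the WT livers at 24 hours, replicates 1 and 2 were again the lowest, and replicates 3 and 4 lay within the unoperated range. In SIRTintKO livers it ranged from 73.8 to 124 CPM with a median of 102 at 0 hours and was at 119, 93.7, 118, 120 and 105 CPM at 6 hours. By 24 hours it ranged from 5.50 to 73.6 CPM with a median of 12.9. The highest of these, replicate 5, stood just under the lowest unoperated liver, and the next highest was at 27.7 CPM. The log2 fold change at 24 hours was -2.18 ± 0.40 in SIRTintKO livers (SE, edgeR adjusted p = 5.14e-05). In WT livers it was -0.77 ± 0.46 and did not pass (SE, edgeR adjusted p = 0.202), and it ran from -1.18 without WT replicate 3 to -0.46 without WT replicate 1 at 24 hours.

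*Rhbg* passes ammonia across the membrane of the same cells. It was a low gene, with 16 to 216 counts per library. In WT livers it ranged from 5.43 to 10.6 CPM at 0 hours with a median of 8.47 and from 3.65 to 11.2 CPM at 6 hours with a median of 8.0, and was at 0.984, 5.14, 2.36 and 1.79 CPM at 24 hours. In the livers of SIRTintKO mice it ranged from 7.87 to 14.3 CPM at 0 hours with a median of 9.52. It was at 4.17, 6.76, 8.36, 8.19 and 2.04 CPM at 6 hours, and ranged from 1.15 to 5.90 CPM with a median of 1.64 at 24 hours. In both genotypes all livers at 24 hours were below all livers at 0 hours, as for 9.89% of all genes in WT and 10.9% in SIRTintKO livers. The log2 fold change was -1.68 ± 0.44 in WT livers (SE), at an edgeR adjusted p of 0.00415, and -2.11 ± 0.37 in SIRTintKO livers (SE, edgeR adjusted p = 2.42e-05), and both were called.

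*Oat* links ornithine to glutamate. It ranged from 428 to 768 CPM with a median of 645 in WT livers at 0 hours and from 593 to 1194 with a median of 948 at 6 hours. At 24 hours the WT livers were at 206, 651, 1035 and 590 CPM, on both sides of the unoperated range. In SIRTintKO livers it ranged from 372 to 714 CPM with a median of 591 at 0 hours, and was at 1041, 536, 546, 900 and 600 CPM at 6 hours. At 24 hours it ranged from 136 to 680 CPM with a median of 268, and 4 of the 7 livers were below every unoperated liver. Against 0 hours *Oat* passed in neither genotype, with log2 fold changes at 24 hours of -0.01 ± 0.37 in WT (SE, edgeR adjusted p = 0.992) and -0.65 ± 0.32 in SIRTintKO livers (SE, edgeR adjusted p = 0.0886). Against 6 hours it was called lower in SIRTintKO livers, at -1.02 ± 0.33 (SE, edgeR adjusted p = 0.0213), a call that was not made without SIRTintKO replicate 1 or 4 at 6 hours or without replicate 1, 2, 6 or 7 at 24 hours (-0.84 to -0.94).

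Both central cytochromes P450 were called lower at 24 hours in both genotypes, and *Cyp1a2* also at 6 hours. *Cyp1a2* ranged from 397 to 678 CPM with a median of 629 in WT livers at 0 hours, from 48.5 to 199 with a median of 136 at 6 hours, and was at 7.81, 36, 65.6 and 52.0 CPM at 24 hours. In the livers of SIRTintKO mice it ranged from 500.2 to 659.6 CPM with a median of 622 at 0 hours and was at 109, 105, 199, 296 and 118 CPM at 6 hours. By 24 hours it ranged from 13.5 to 77.4 CPM with a median of 49.8. Every liver at 6 or 24 hours lay below every unoperated liver of its genotype, which at 6 hours held for 12.6% of all genes in WT and 13% in SIRTintKO livers, and at 24 hours for 9.89% and 10.9%. *Cyp1a2* had the largest fall of the 9 genes at 24 hours in both genotypes, 14.5-fold in WT livers (log2 fold change -3.86 ± 0.53, SE, edgeR adjusted p = 3.42e-06) and 12.7-fold in SIRTintKO livers (-3.66 ± 0.41, edgeR adjusted p = 4.33e-08). At 6 hours the log2 fold change was already -2.11 ± 0.41 in WT (SE, edgeR adjusted p = 0.000155) and -1.86 ± 0.43 in SIRTintKO livers (SE, edgeR adjusted p = 0.00112).

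*Cyp2e1* ranged from 3223 to 5738 CPM with a median of 5206 in WT livers at 0 hours and from 2784 to 5610 with a median of 3947 at 6 hours. At 24 hours the 4 WT livers were at 466, 1185, 2072 and 2060 CPM, and all lay below every WT liver at 0 hours, as for 9.89% of all genes, and at 6 hours, as for 3.83%. In SIRTintKO livers it ranged from 4473 to 6404 CPM with a median of 4832 at 0 hours, and was at 4149, 3262, 3140 and 4349 CPM in 4 livers and 2457 CPM in the fifth at 6 hours. At 24 hours it ranged from 293 to 1587 CPM with a median of 724. All 5 SIRTintKO livers at 6 hours were below all unoperated ones, as for 13% of all genes, yet the log2 fold change of -0.55 ± 0.37 did not pass (SE, edgeR adjusted p = 0.242). At 24 hours it was -1.76 ± 0.41 in WT livers (SE), at an edgeR adjusted p of 0.00163, and -2.63 ± 0.35 in SIRTintKO livers (SE, edgeR adjusted p = 5.36e-07).

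The 3 Wnt target and feedback genes took other courses. *Lgr5*, which rests on 1 to 84 counts per library, ranged from 1.38 to 4.62 CPM with a median of 3.17 in WT livers at 0 hours and from 0.311 to 1.90 with a median of 1.24 at 6 hours. At 24 hours the WT livers were at 2.95, 0.0571, 2.41 and 2.39 CPM, where the second liver had 1 count and the other three were within the unoperated range. In the livers of SIRTintKO mice it ranged from 1.57 to 4.97 CPM with a median of 3.5 at 0 hours and was at 1.28, 0.563, 0.943, 0.789 and 0.419 CPM at 6 hours, all below the unoperated livers, as for 13% of all genes. By 24 hours it ranged from 0.917 to 1.95 CPM with a median of 1.49. The log2 fold change at 6 hours was -1.46 ± 0.44 in WT (SE, edgeR adjusted p = 0.0100) and -2.05 ± 0.49 in SIRTintKO livers (SE, edgeR adjusted p = 0.00132). At 24 hours it was -1.23 ± 0.41 in SIRTintKO livers and still called (SE, edgeR adjusted p = 0.0135), and -0.66 ± 0.48 in WT livers, where it did not pass (SE, edgeR adjusted p = 0.294). The WT value was -0.26 without the liver that had 1 count.

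*Nkd1* ranged from 3.4 to 4.68 CPM with a median of 4.06 in WT livers at 0 hours and from 2.02 to 4.51 with a median of 3.59 at 6 hours, and was at 1.41, 2.23, 3.19 and 2.54 CPM at 24 hours. In SIRTintKO livers it ranged from 3.28 to 5.90 CPM with a median of 3.82 at 0 hours, was at 2.82, 3.31, 3.21, 4.61 and 2.16 CPM at 6 hours, and ranged from 1.39 to 3.54 CPM with a median of 2.82 at 24 hours. The WT livers at 24 hours were all below the unoperated WT livers, as for 9.89% of all genes, while the SIRTintKO groups overlapped. The log2 fold change at 24 hours was -0.79 ± 0.27 in WT (SE, edgeR adjusted p = 0.0252) and -0.74 ± 0.23 in SIRTintKO livers (SE, edgeR adjusted p = 0.00838). Both pass the threshold on p and not that on the fold change, so *Nkd1* was not called.

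*Rnf43* was called in no comparison. In WT livers it ranged from 1.58 to 7.15 CPM with a median of 4.16 at 0 hours and from 3.61 to 9.63 with a median of 6.53 at 6 hours, and was at 7.32, 4.23, 4.50 and 6.82 CPM at 24 hours. In the livers of SIRTintKO mice it ranged from 3.23 to 7.36 CPM with a median of 4.41 at 0 hours, was at 11.4, 5.99, 8.11, 4.92 and 4.01 CPM at 6 hours, and ranged from 1.32 to 7.92 CPM with a median of 5.18 at 24 hours. All groups overlapped. Its log2 fold changes against 0 hours were 0.65 and 0.47 in WT and 0.57 and 0.15 in SIRTintKO livers at 6 and 24 hours, with edgeR adjusted p-values of 0.142, 0.356, 0.223 and 0.735. The 95% intervals at 24 hours ran from -0.31 to 1.26 in WT and from -0.54 to 0.83 in SIRTintKO livers.

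Between 6 and 24 hours, a comparison within 1 series of library numbers, *Glul*, *Rhbg*, *Cyp2e1* and *Cyp1a2* were called lower in WT livers, which is 4 of the 9 genes against 2.72% of all genes. In SIRTintKO livers these 4, *Oat* and *Slc1a2* were called lower, 6 of the 9 against 3.91%. The log2 fold change of *Glul* was -1.76 ± 0.45 in WT (SE, edgeR adjusted p = 0.00790) and -2.68 ± 0.39 in SIRTintKO livers (SE, edgeR adjusted p = 1.51e-05). *Slc1a2* was at -2.32 ± 0.41 in SIRTintKO livers (SE, edgeR adjusted p = 0.000151) and at -1.19 ± 0.47 in WT livers (SE, edgeR adjusted p = 0.0788), although the 4 WT livers at 24 hours were all below the 6 at 6 hours, as for 3.83% of all genes, and it did pass with DESeq2 (adjusted p = 0.0417). *Cyp1a2* fell on from its level at 6 hours, by 1.75 in WT (edgeR adjusted p = 0.0105) and by 1.81 in SIRTintKO livers (edgeR adjusted p = 0.00129) on the log2 scale. *Lgr5* had positive log2 fold changes of 0.79 and 0.82 that did not pass (edgeR adjusted p = 0.279 and 0.198). *Cyp2e1* was at -1.46 in WT and -2.08 in SIRTintKO livers and *Rhbg* at -1.54 and -1.30. Not called were *Oat* in WT livers (-0.51), *Nkd1* (-0.49 and -0.31) and *Rnf43* (-0.18 and -0.42). When only the groups compared were fitted, none of the WT calls passed, and of the SIRTintKO calls *Oat* (edgeR adjusted p = 0.0799) and *Rhbg* (edgeR adjusted p = 0.0534) did not. Without WT replicate 1 at 24 hours *Rhbg* (-1.24) and *Cyp2e1* (-1.15) were not called, without replicate 2 *Lgr5* was called higher (1.21), and without replicate 3 *Slc1a2* was called lower (-1.59).

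The genotypes were then compared at each time point, to ask whether loss of *Sirt1* in the intestine altered the central genes of the liver. At 0 hours none of the 9 genes was called by edgeR or by DESeq2, 0 had an unadjusted p under 0.05 against 1.07% of all genes, and over all genes the share called by edgeR was 0%, where DESeq2 called 6 genes. Log2 fold changes were -0.16 for *Oat*, -0.011 for *Slc1a2*, 0.034 for *Cyp1a2*, 0.052 for *Cyp2e1*, 0.092 for *Nkd1*, 0.10 for *Lgr5*, 0.14 for *Glul*, 0.18 for *Rnf43* and 0.33 for *Rhbg*, and the 95% interval of *Glul* ran from -0.63 to 0.92. At 6 hours the result was the same, with 0 genes called by either tool, 0 at an unadjusted p under 0.05 against 6.52% of all genes, and a share called by edgeR of 0% over all genes, where DESeq2 called 9. *Slc1a2* was lower in all 5 SIRTintKO livers than in all 6 WT livers, as for 0.22% of all genes, by a log2 fold change of -0.29 ± 0.43 that did not pass (SE, edgeR adjusted p = 0.913). The others were at -0.49 for *Lgr5*, -0.34 for *Rhbg*, -0.28 for *Oat*, -0.27 for *Glul*, -0.20 for *Cyp2e1*, -0.036 for *Nkd1*, 0.087 for *Rnf43* and 0.28 for *Cyp1a2*.

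At 24 hours *Slc1a2* was called lower in SIRTintKO than in WT livers, as 1 of the 9 genes against 1.3% of all genes, and 4 of the 9 had an unadjusted p under 0.05 against 23.4%. Its log2 fold change was -1.42 ± 0.43 (SE, edgeR adjusted p = 0.0454), a 2.67-fold difference, with the groups overlapping. *Glul* was at -1.19 ± 0.40 and did not pass (SE, edgeR adjusted p = 0.0706), and it did pass with DESeq2 (adjusted p = 0.0429). *Cyp2e1* was at -0.81 ± 0.37 (SE, edgeR adjusted p = 0.176) and *Oat* at -0.80 ± 0.35 (SE, edgeR adjusted p = 0.163). *Cyp1a2*, *Rhbg*, *Nkd1*, *Lgr5* and *Rnf43* had values of 0.23, -0.10, 0.15, -0.46 and -0.15, and the 95% interval of *Cyp1a2* ran from -0.66 to 1.11. The call of *Slc1a2* was absent from 7 of 11 leave-one-out fits, those without WT replicate 3 (-1.02, edgeR adjusted p = 0.173) or 4 and those without SIRTintKO replicate 1, 2, 3, 6 or 7, and when only the 24-hour livers were fitted (edgeR adjusted p = 0.396). Without SIRTintKO replicate 5 it was -2.13 (edgeR adjusted p = 0.000293). In the fit of the 24-hour livers alone edgeR called 0 of 13974 genes, so that none of the genes called between genotypes at 24 hours, here or in the lists that follow, was called there. *Glul*, *Oat* and *Cyp2e1* were called as well, at -1.54, -1.11 and -1.12, without WT replicate 1 and, at -1.61, -1.03 and -1.06, without SIRTintKO replicate 5. Without WT replicate 3 *Glul* was at -0.74 (edgeR adjusted p = 0.293) and *Oat* at -0.46 (edgeR adjusted p = 0.487), and without WT replicate 4 *Cyp2e1* was at -0.59 (edgeR adjusted p = 0.399). *Lgr5* ran from -0.87 without WT replicate 2 to -0.22 without WT replicate 1.

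The interaction, which asks whether the change from 0 hours differs between genotypes, was called for 0 of the 9 genes at 6 and at 24 hours by edgeR and by DESeq2. Over all genes edgeR called it for 0% at 6 hours and 0.00668% at 24 hours, and DESeq2 called it for 2 and 96 of the 14980 genes. Unadjusted, 2 of the 9, *Glul* and *Slc1a2*, had a p under 0.05 at 24 hours against 12.7% of all genes, and 0 had at 6 hours against 3.05%. The interaction at 24 hours was -1.34 ± 0.56 for *Glul* (SE, edgeR adjusted p = 0.314) and -1.41 ± 0.59 for *Slc1a2* (SE, edgeR adjusted p = 0.319). Those of the others were -0.86 for *Cyp2e1*, -0.64 for *Oat*, -0.57 for *Lgr5*, -0.43 for *Rhbg*, -0.33 for *Rnf43*, 0.054 for *Nkd1* and 0.19 for *Cyp1a2*. At 6 hours the interaction was -0.66 for *Rhbg*, -0.59 for *Lgr5*, -0.41 for *Glul*, -0.28 for *Slc1a2*, -0.25 for *Cyp2e1*, -0.13 for *Oat* and *Nkd1*, -0.090 for *Rnf43* and 0.25 for *Cyp1a2*. At 24 hours *Slc1a2* passed in 1 of 23 leave-one-out fits, that without SIRTintKO replicate 5 at 24 hours (-2.11, edgeR adjusted p = 0.0139). Without WT replicate 3 at 24 hours it was at -1.01 and *Glul* at -0.89.

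**Figure D3:**
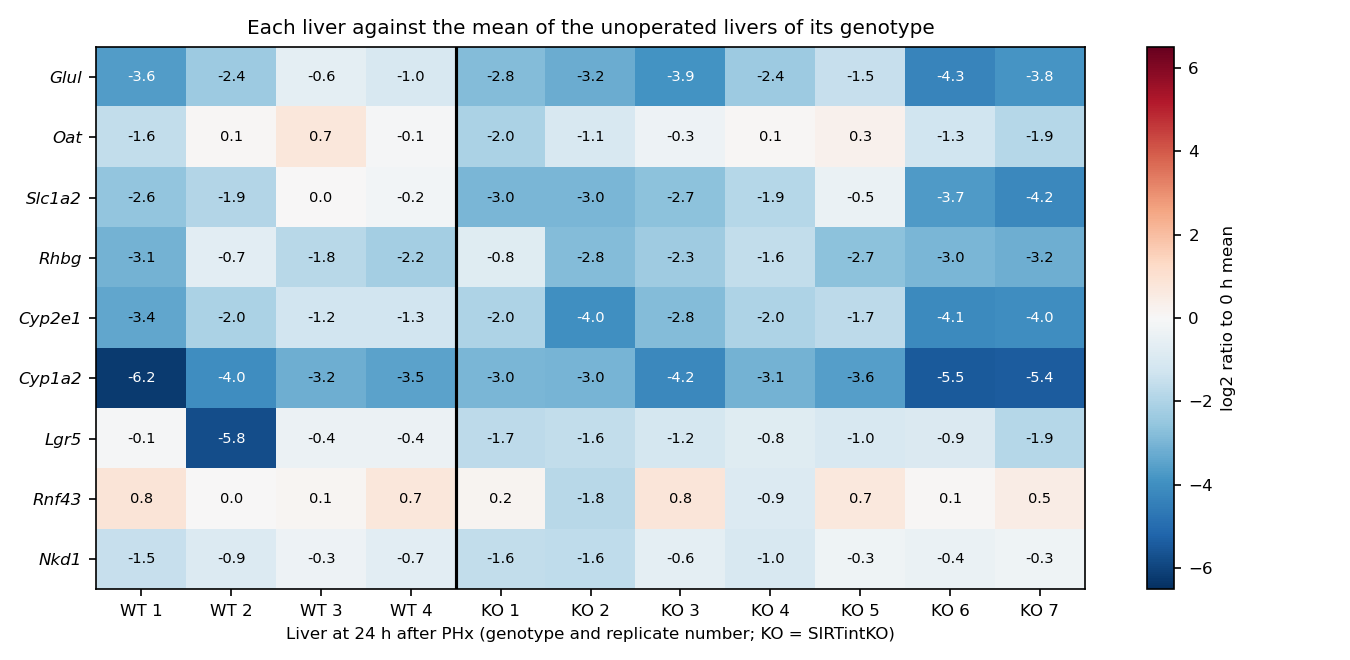
Log2 ratio of each gene in each of the 11 livers at 24 hours to the mean of the unoperated livers of its genotype, with WT livers left of the line and SIRTintKO livers (KO) right of it. WT livers 3 and 4 are pale for *Glul*, *Oat* and *Slc1a2*, SIRTintKO liver 5 is the palest of its group for *Glul* and *Slc1a2*, and *Cyp1a2* is dark in all 11.

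The 11 livers at 24 hours differed widely among themselves. Relative to the mean of unoperated livers of the same genotype, *Glul* was at 8.14% in WT replicate 1 and at 65.1% in WT replicate 3. In SIRTintKO livers it ran from 5.12% in replicate 6 to 34.9% in replicate 5. The number of the 9 genes with a log2 ratio under -1 was 7 and 5 in WT replicates 1 and 2, and 3 and 4 in replicates 3 and 4. Among the 7 SIRTintKO livers it ran from 5 in replicate 5 to 9 in replicate 2. SIRTintKO replicate 5 was among the 3 highest of the 11 livers for 6 of the 9 genes and WT replicate 3 for 5, while SIRTintKO replicate 7 was among the 3 lowest for 7. The summed level of neutrophil markers also differed, at 124, 102, 14.5 and 8.36 CPM in WT replicates 1 to 4. In SIRTintKO replicates 1 to 7 it was 96.3, 959, 211, 125, 23.5, 99.1 and 61.0 CPM. Whether these sums go with the levels of the 9 genes was not tested.

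Several genes of the central zone varied together from liver to liver, which describes these livers and has no test. Periportal genes differed between the same livers at 24 hours. Their summed level was 3797, 5111, 10317 and 8503 CPM in WT replicates 1 to 4. In SIRTintKO replicates 1 to 7 it was 6377, 4570, 6520, 6846, 7310, 4293 and 4941 CPM. Whether the covariation is particular to the central zone was not tested. After group means were subtracted from log2 CPM, Pearson's r over all 34 livers was 0.86 between *Glul* and *Slc1a2*, 0.84 between *Glul* and *Cyp2e1* and 0.78 between *Glul* and *Cyp1a2*. Over the 11 livers at 24 hours these were 0.92, 0.86 and 0.81, and over the 23 others 0.54, 0.74 and 0.69. *Oat* went with *Slc1a2* (r = 0.75, and 0.47 over the 23 others). The r with *Glul* was 0.52 for *Oat* and 0.39 for *Rhbg*, which was at 0.34 over the 11 livers and 0.55 over the 23. Over the 23 livers at 0 and 6 hours r of *Oat* was -0.076 with *Glul*, -0.15 with *Cyp1a2* and -0.024 with *Rhbg*. For the Wnt targets, which rest on few counts, r with *Glul* was 0.22 for *Lgr5*, -0.02 for *Rnf43* and 0.29 for *Nkd1*, and over the 23 livers at 0 and 6 hours it was 0.39, 0.18 and 0.39. Points share libraries and scaling factors. Without subtraction of group means, the genes other than these 9 whose log2 CPM was most like *Glul* were Gm2788 (r = 0.95) and *Slc27a2* (r = 0.94). For *Slc1a2* they were *Nat8f2* (r = 0.95) and *Hpd* (r = 0.94), for *Cyp2e1* *Bckdha* and *Isoc2a* (both r = 0.95), and for *Cyp1a2* *Ugt2b1* and *Car3* (both r = 0.98). *Oat* was nearest to *Lhpp* (r = 0.83) and *Asl* (r = 0.81), and *Rhbg* to *Slc15a5* (r = 0.87) and *Cyp27a1* (r = 0.86). For the Wnt targets the highest r was 0.85 with *C2cd2* and with 9130016M20Rik for *Lgr5*, 0.81 with *Erg* and 0.80 with *Coro2b* for *Nkd1*, and 0.73 with *Gorasp1* and 0.72 with *Lrfn3* for *Rnf43*.

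**Figure D4:**
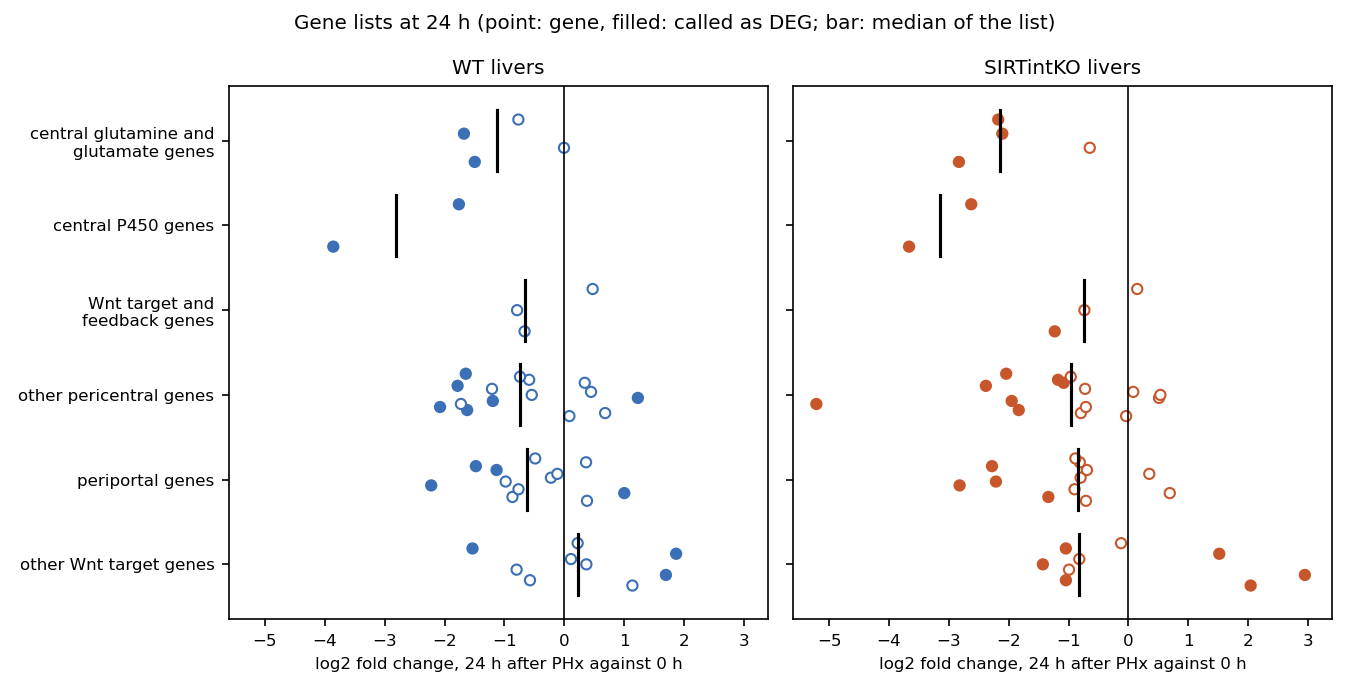
Log2 fold changes at 24 hours against 0 hours for the 9 genes in their 3 groups and for lists of other pericentral, periportal and Wnt target genes, each point a gene, filled where called, with the list's median as a bar. The medians of the other pericentral and the periportal list lie close to each other, at -0.74 and -0.63 in WT and -0.96 and -0.85 in SIRTintKO livers.

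Other pericentral hepatocyte genes and periportal genes were set beside them. Over all genes, 7.4% were called lower and 8.32% higher in WT livers at 24 hours, and 11.1% and 11.9% in SIRTintKO livers. At 6 hours these shares were 8.4% and 7.17% in WT and 8.7% and 7.86% in SIRTintKO livers. Between genotypes at 24 hours they were 1.3% and 1.38%. The same shares apply to the lists that follow. Of 15 other pericentral genes, 5 were called lower and 1 higher in WT livers at 24 hours, and 7 lower and 0 higher in SIRTintKO livers. The largest falls in SIRTintKO livers were -5.21 for *Cyp7a1*, the rate-limiting enzyme of bile acid synthesis, -2.38 for *Rgn*, regucalcin, and -2.04 for *Slco1b2*, an uptake transporter of organic anions. *Cyp7a1* had a median of 0.0602 CPM and a highest level of 5.54 CPM in SIRTintKO livers at 24 hours, and without SIRTintKO replicate 5 its log2 fold change was -8.68. In WT livers the largest called falls were -2.08 for *Cyp2a5*, -1.78 for *Rgn* and -1.65 for *Slco1b2*, *Cyp7a1* was at -1.73 and not called, and *Ldhd*, D-lactate dehydrogenase, was called higher at 1.23. Of 12 periportal genes, 3 were called lower and 1 higher in WT livers, and 4 lower and 0 higher in SIRTintKO livers. *Cyp2f2*, a periportal P450, was at -2.22 in WT and -2.82 in SIRTintKO livers, and *Pigr*, the receptor for polymeric immunoglobulin, at -1.48 and -2.28. *Gls2*, the liver glutaminase that releases the ammonia of glutamine, was called in SIRTintKO livers at -2.21, and *Pck1*, a gluconeogenic enzyme, in WT livers at -1.13, where *Cdh1*, E-cadherin, was called higher at 1.00. The median log2 fold changes were -0.74 for other pericentral and -0.63 for periportal genes in WT livers and -0.96 and -0.85 in SIRTintKO livers. Between genotypes at 24 hours, *Slc13a3* (-1.27) and *Avpr1a* (-1.34), the vasopressin receptor, of the pericentral list and *Sds* (-1.63) and *Gls2* (-1.32) of the periportal list were called lower in SIRTintKO livers. None of these 4 was called when only the 24-hour livers were fitted. *Slc13a3* was not called without WT replicate 1 or 4 or SIRTintKO replicate 3 or 6, and *Gls2* not without WT replicate 3 or 4. Against 0 hours in WT livers, *Slco1b2* and *Pck1* were not called without WT replicate 1 or 2 at 24 hours, *Slco1b2* not when only the groups compared were fitted (edgeR adjusted p = 0.122), and *Cdh1* was not called in 6 of 10 leave-one-out fits. *Cyp2a5* was at -2.84 without WT replicate 2 at 24 hours.

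At 6 hours 5 of the 15 other pericentral genes were called lower and 1 higher in WT livers, with *Cyp7a1* at -3.94, *Avpr1a* at -1.75, *Cyp2a5* at -1.31 and *Slc16a10*, a transporter of aromatic amino acids, at 1.01. In SIRTintKO livers 4 were called lower and 0 higher, with *Cyp7a1* at -5.41, *Nr1i3*, the nuclear receptor CAR, at -1.59 and *Avpr1a* at -1.51. Of the 12 periportal genes, 0 were called lower and 1 higher in WT livers, and 1 lower and 1 higher in SIRTintKO livers. *Sds*, serine dehydratase, was the gene called higher in both, at 1.72 and 1.85, and *Cyp2f2* was called lower in SIRTintKO livers at -1.01. The call of *Slc16a10* in WT livers was missing from 5 of 12 leave-one-out fits and that of *Cyp2f2* in SIRTintKO livers from 3 of 11, and *Cyp7a1* was at -5.18 in WT livers without WT replicate 4.

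Of 11 other Wnt target genes 9 were tested, and they moved in both directions. At 6 hours 2 were called lower and 1 higher in each genotype. *Notum*, a secreted enzyme that inactivates Wnt ligands, was at -2.17 in WT and -1.56 in SIRTintKO livers, and *Ccnd1*, cyclin D1, which is also a general gene of cell cycle entry, at 1.27 and 1.65. At 24 hours 1 was called lower and 2 higher in WT livers, and 3 lower and 3 higher in SIRTintKO livers. *Axin2*, a feedback inhibitor of beta-catenin, was at -1.04 ± 0.42 in SIRTintKO livers and called (SE, edgeR adjusted p = 0.0366), and at -0.57 ± 0.49 in WT livers, where it did not pass (SE, edgeR adjusted p = 0.381). *Ccnd1* was called higher in both, at 1.70 and 2.95, and so was *Tcf7*, a TCF factor, at 1.87 and 1.52. *Axin2* was not called in 8 of 13 leave-one-out fits or when only the groups compared were fitted (edgeR adjusted p = 0.0679), and was at -1.65 without SIRTintKO replicate 5 at 24 hours, and *Ccnd1* at 6 hours in WT livers was not called in 4 of 12 and was at 0.59 without WT replicate 2 at 6 hours. The other called genes had mean levels under 1 CPM, namely *Tnfrsf19*, called lower at 6 and 24 hours in both genotypes, and *Sp5*, lower, and *Apcdd1*, higher, in SIRTintKO livers at 24 hours. They are named outside the rule for named genes, and in SIRTintKO livers at 24 hours *Tnfrsf19* was not called in 3 and *Sp5* in 2 of 13 leave-one-out fits. In SIRTintKO livers at 6 hours *Tnfrsf19* was not called in 4 of 11 leave-one-out fits. Between genotypes edgeR called 0 of the 9 at any time point, with 0, 1 and 3 at an unadjusted p under 0.05 at 0, 6 and 24 hours. The shares over all genes were 1.07%, 6.52% and 23.4%.

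Upstream of these targets, 7 of 12 Wnt ligands and R-spondins were tested. *Wnt2*, a ligand of the sinusoidal and central vein endothelium, fell at 24 hours in WT livers by 1.97 on the log2 scale (edgeR adjusted p = 0.000842), and was at -0.11 in SIRTintKO livers (edgeR adjusted p = 0.803). *Wnt9b*, from the same endothelium, was at -0.76 in WT livers and did not pass (edgeR adjusted p = 0.258), and was called higher in SIRTintKO livers at 1.07 (edgeR adjusted p = 0.0307). Between genotypes at 24 hours both were called higher in SIRTintKO livers, as were 1.38% of all genes, *Wnt2* at 1.99 ± 0.42 (SE, edgeR adjusted p = 0.00878) and *Wnt9b* at 1.91 ± 0.50 (SE, edgeR adjusted p = 0.0234). The interaction with the change from 0 hours did not pass for either (edgeR adjusted p = 0.163 and 0.250). When only the 24-hour livers were fitted, neither was called between genotypes (edgeR adjusted p = 0.259 and 0.316). In WT livers at 24 against 6 hours *Wnt2* and *Wnt9b* were called lower. The 10 endothelial markers had log2 fold changes of 0.064 to 1.60 between genotypes at 24 hours, at a median of 0.48. The part of endothelial cells in the levels of these ligands was not tested. *Wnt9b* was not called between genotypes without WT replicate 2 (it was at 2.61 without WT replicate 3), nor against 0 hours without SIRTintKO replicate 1 or 6 at 0 hours or 6 or 7 at 24 hours, nor when only the groups compared were fitted (edgeR adjusted p = 0.0539). *Wnt5a*, a ligand that mostly acts without beta-catenin, was called higher at 6 and 24 hours in both genotypes, by 1.37 to 1.62, except that without WT replicate 2 at 24 hours the WT value at that time was 0.86 and not called. *Wnt9a*, with a mean under 1 CPM and named outside the rule, was called higher in SIRTintKO livers at both times.

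Of 17 receptors and co-receptors 12 were tested. In SIRTintKO livers at 24 hours *Fzd8*, a Frizzled receptor, was called lower at -1.47 and *Lgr4*, the R-spondin receptor widely expressed in hepatocytes, at -1.18, and in WT livers *Fzd3*, at a mean under 1 CPM and named outside the rule, was called higher, in 5 of 10 leave-one-out fits. *Ror1*, a receptor of *Wnt5a*, was called higher at 6 hours at 1.08 in WT and 1.26 in SIRTintKO livers, the latter with *Fzd3*. Of 14 tested genes of the beta-catenin core, 0 were called against 0 hours by edgeR in either genotype, with log2 fold changes from -0.93 to 0.89, and 4 to 8 of the 14 had an unadjusted p under 0.05, as did 45.6% and 43.9% of all genes in WT and 46.9% and 56.1% in SIRTintKO livers at 6 and 24 hours. Between genotypes at 24 hours 0 were called and for 9 the unadjusted p was below 0.05, against 23.4% of all genes, at a median log2 fold change of -0.35, where the median over all genes was -0.02. *Dvl2*, a Dishevelled protein, was called higher in WT livers at 24 hours against 6 hours, at 1.09, as were 4.44% of all genes, though not without WT replicate 1 or 2 at 24 hours or 6 at 6 hours, or when only the groups compared were fitted (edgeR adjusted p = 0.112). Of 11 secreted inhibitors 3 had enough counts, and edgeR called 0 of them against 0 hours or between genotypes, with 0 or 1 at an unadjusted p under 0.05.

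In the pathway around *Glul*, *Oat* and *Slc1a2*, 17 of 18 genes of glutamine, glutamate and proline handling were tested. At 6 hours 0 were called lower and 4 higher in WT livers, and 1 lower and 5 higher in SIRTintKO livers. *Gpt2*, an alanine aminotransferase, was at 1.70 in WT and 1.31 in SIRTintKO livers and *Got1*, a cytosolic aspartate aminotransferase, at 1.62 and 1.28, all called higher, though *Got1* in SIRTintKO livers not without SIRTintKO replicate 1 at 6 hours. In SIRTintKO livers *Aldh18a1* was at 1.77, and *Prodh*, proline dehydrogenase, was called lower at -1.001, in 6 of 11 leave-one-out fits and not when only the groups compared were fitted. At 24 hours 1 was called lower and 4 higher in WT livers, and 3 lower and 4 higher in SIRTintKO livers. *Aldh18a1*, which makes pyrroline-5-carboxylate from glutamate, rose by 2.29 in WT and 3.12 in SIRTintKO livers, and *Slc1a4*, a neutral amino acid transporter, by 1.61 and 1.52. *Prodh* was at -1.51 and -2.04. *Got1*, higher at 6 hours, was called lower in SIRTintKO livers at -1.09, along with *Gls2*. Between genotypes *Gls2* (-1.32) and *Got1* (-1.60) were called lower and *Gpt2* higher (1.08) in SIRTintKO livers. None of these 3 was called when only the 24-hour livers were fitted. *Got1* was not called between genotypes without WT replicate 2, and *Gpt2* not without WT replicate 2 or SIRTintKO replicate 1. *Slc1a4* in WT livers was at 1.07 and not called without WT replicate 1 at 24 hours, and *Got1* in SIRTintKO livers was not called in 4 of 13 leave-one-out fits.

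Around *Cyp1a2*, 10 of 11 genes of the aryl hydrocarbon receptor and of P450 partners were tested. *Tiparp*, a target and inhibitor of this receptor, was higher at 24 hours by 2.89 in WT and 2.83 in SIRTintKO livers, and *Cyp1b1*, another target, by 1.38 and 2.44. *Por*, the reductase that feeds electrons to microsomal P450s, was at 1.04 and 1.06 and had been at 2.06 and 2.03 at 6 hours, when *Tiparp* was at 1.79 and 2.64 and *Cyp1b1* at 1.45 and 1.34, all called. *Nqo1*, a quinone reductase, was called higher in SIRTintKO livers at 1.88. Between genotypes at 24 hours *Nqo1* (1.19) and *Cyb5a* (1.10), cytochrome b5, were called higher in SIRTintKO livers, but not when only the 24-hour livers were fitted, nor *Nqo1* without WT replicate 2 and *Cyb5a* without WT replicate 2 or 4 or SIRTintKO replicate 1 or 2. Without WT replicate 2 at 24 hours *Tiparp* was at 1.94 and *Cyp1b1* not called in WT livers, the latter also when only the groups compared were fitted (edgeR adjusted p = 0.0853), and *Por* was not called in 3 of 10 WT and 2 of 13 SIRTintKO leave-one-out fits. At 6 hours *Cyp1b1* in SIRTintKO livers was not called without SIRTintKO replicate 1 or 4 at 6 hours. *Cyp1a1*, the neighbour and close relative of *Cyp1a2*, had a mean under 1 CPM, and it was called lower in SIRTintKO livers at 24 hours, outside the rule for named genes. At 24 hours the log2 fold changes of the 10 tested genes ran from -1.08 to 2.89 in WT and from -1.43 to 2.83 in SIRTintKO livers. Their relation to the fall of *Cyp1a2* was not tested.

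Markers of other cell types also moved at 24 hours. Of 10 hepatocyte markers, 5 were called lower in WT livers and 2 in SIRTintKO livers, and their summed level ranged from 59173 to 75486 CPM in WT and from 59184 to 109933 CPM in SIRTintKO livers, against 92526 to 104215 and 85660 to 109962 CPM at 0 hours. Of 7 tested neutrophil markers, 4 were called higher in WT and 7 in SIRTintKO livers, with a summed level of 8.36 to 124 and 23.5 to 959 CPM, against 6.79 to 23.1 and 4.34 to 21.4 CPM at 0 hours. The 959 CPM came from SIRTintKO replicate 2 alone, and the next highest SIRTintKO liver, replicate 3, was at 211 CPM. Of 10 endothelial markers, 4 were called lower in each genotype, with 2 higher in SIRTintKO livers, and the sum ranged from 68.2 to 132 and from 106 to 194 CPM, against 142 to 212 and 154 to 242 CPM at 0 hours. The macrophage list had 6 of 10 lower and 1 higher in WT livers and 1 lower and 2 higher in SIRTintKO livers. Of 8 tested cholangiocyte markers 3 and 4 were called higher, and of 10 stellate cell markers 0 and 3 were higher and 1 and 1 lower. Between genotypes at 24 hours the endothelial marker *Thbd*, the macrophage marker *Marco* and the neutrophil marker *Csf3r*, named outside the rule after their values were seen, were called higher in SIRTintKO livers. None was called when only the 24-hour livers were fitted, *Thbd* was not called without WT replicate 3 or 4 or SIRTintKO replicate 2, and *Marco* not without WT replicate 2. No other marker of these lists was called in this comparison. Log2 fold changes ran from -2.21 to 2.34 over the 7 tested neutrophil markers. They ran from 0.064 to 1.60 over the endothelial and from -0.079 to 2.28 over the macrophage list. The part of these cell types in the levels of the 9 genes was not tested.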

How the data were processed

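RNA-seq of liver tissue was analysed in 34 mice, grouped by genotype and hours after PHx as the labels give them. The authors deposited expected counts per gene from the nf-core RNA-seq pipeline, with alignment by STAR and quantification by Salmon, without normalization. The submitters' processing notes name build GRCm39. Stranded libraries were made from polyA RNA. Of 35 value columns in the table, 1 matched no label and was not used. The letter x was missing from the deposited symbols, and 1316 symbols were restored through gene identifiers. No symbol of the 9 genes was affected. Rounding to whole numbers changed 4.975% of the expected counts.

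With edgeR 4.0.16 in R 4.3.3, libraries were scaled by TMM, genes were kept by filterByExpr, which left 14980, and a quasi-likelihood model with 1 mean per group was fitted to all libraries. The common biological coefficient of variation was 0.302. The Benjamini-Hochberg method was applied to the p-values of the 14980 genes. A call required an adjusted p below 0.05 together with a log2 fold change beyond 1 in either direction. An SE is the log2 fold change divided by the square root of its F. Log2 CPM carry a prior count of 2. The labels call the replicates biological. Each gene's spread between livers was estimated over all groups together, so a p-value does not rest on the groups compared alone. The groups can differ in spread, and the SD of *Slc1a2* was 14.2 CPM in WT and 11.4 CPM in SIRTintKO livers at 6 hours. At 24 hours it was 43.8 and 23.7 CPM. Simulated counts with known changes were also fitted, at the same spread in all groups, and their outcome is not reported here.

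The 9 genes and all lists were chosen with earlier results of these data known. By rule, all 9 are given in every comparison. From the other lists, up to 3 called genes in each direction with a mean of at least 1 CPM were named, by size of change, except 2 genes that are not reported here, and for each of the 9 genes the 2 genes with the highest r of log2 CPM. Alternatives were DESeq2 1.42.0, other scalings and filters, glmTreat, the adjusted p alone, only the groups compared, the replicate number as a block, and leaving out each liver in turn. For the genes of the other lists, the last and the fit of only the groups compared were added after seeing the data. At this depth, 1 count is worth a small part of 1 CPM, which varies between libraries and was 0.0571 CPM in WT replicate 2 at 24 hours. *Lgr5*, *Rnf43*, *Nkd1* and *Rhbg* therefore rest on few reads.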

Additional observations from a re-analysis of the deposited data

Results flagged for a closer look

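In groups of 4 to 7 livers, the gap of the highest or lowest liver to its neighbour was set against the range of the group with Dixon's critical values. This was done for 54 sets of 1 gene in 1 group. This marked 2 values, where chance alone marks about 1 in 20 sets. *Glul* in SIRTintKO replicate 4 at 6 hours was at 1120 CPM, with the other 4 livers at 578 to 620 CPM. *Slc1a2* in SIRTintKO replicate 5 at 24 hours was at 73.6 CPM, with the other 6 livers at 5.50 to 27.7 CPM. No interaction of the 9 genes passed, so that no difference between genotypes in the response to PHx is listed here.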

How the results depend on the processing

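The 6 calls in SIRTintKO livers at 24 hours against 0 hours held in all 13 leave-one-out fits, and 5 to 7 genes were called under the other alternatives. None of the 9 was called between genotypes at 0 or 6 hours, or for the interaction at 6 hours, under any of these alternatives. For the remaining comparisons the number of the 9 genes called moved by more than 1.5 times under some alternatives. Smaller moves of the same comparison are given as well. Between genotypes at 24 hours it was 2 with DESeq2, and 0 without a filter, with only the groups compared, with glmTreat and with the replicate block, and it ran from 0 to 4 over the fits that left out 1 liver, with 4 without WT replicate 1 or SIRTintKO replicate 5 and 0 without WT replicate 3 or 4 or SIRTintKO replicate 1, 2, 3, 6 or 7. In WT livers at 6 hours it was 1 with at least 10 counts in every library, which removes *Lgr5* from the genes tested, and 1 with glmTreat. In SIRTintKO livers at 6 hours these were 1 and 0. In WT livers at 24 hours against 0 hours it was 1 with glmTreat, 5 with the adjusted p alone (with *Nkd1*), and 3 to 4 when 1 liver was left out, with 3 without WT replicate 1 or 2 at 24 hours (without *Glul*), and against 6 hours 0 with glmTreat and 0 with only the groups compared, 5 with DESeq2 and with the replicate block (with *Slc1a2*), and 2 to 5 when 1 liver was left out, with 2 without WT replicate 1 at 24 hours. In SIRTintKO livers at 24 against 6 hours it was 3 with glmTreat, 4 with only the groups compared and with the replicate block (without *Oat* and *Rhbg*), 5 with upper-quartile scaling (without *Oat*, -0.98), and 5 to 6 when 1 liver was left out. The interaction at 24 hours ran from 0 to 1 when 1 liver was left out. Apart from what glmTreat and the count minimum test by construction, the cause was not tested.

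Some values changed sign, and none of these had been called. With only the groups compared, *Oat* in WT livers at 24 hours was 0.0039. Replicate numbers are shared by name only, since deviations of livers with the same number had a median r of -0.0036 over 76 pairs and 2 of 33 livers correlated best with their own number. With the replicate block, *Rnf43* in SIRTintKO livers at 24 hours was -0.022, *Rhbg* between genotypes 0.0039 and the interaction of *Nkd1* -0.069. Under the block *Slc1a2* in WT livers at 24 against 6 hours was called (edgeR adjusted p = 0.0475), and in SIRTintKO livers *Rhbg* (-1.18, edgeR adjusted p = 0.0512) and *Oat* (-0.95) were not. When 1 liver was left out, values at 24 hours between genotypes ran from -0.13 to 0.54 for *Cyp1a2*, -0.047 to 0.31 for *Nkd1*, -0.52 to 0.47 for *Rhbg* and -0.28 to 0.0061 for *Rnf43*. Those of the interaction ran from -0.17 to 0.50 for *Cyp1a2*, -0.14 to 0.21 for *Nkd1* and -0.85 to 0.14 for *Rhbg*, and that of *Oat* in WT livers from -0.35 to 0.29.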
